A study of Sus scrofa with 18 samples.

Results

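Kidney grafts left untreated were compared at 24 h and 4 h after transplantation in pigs. The 8 arrays of transplanted kidneys without carbon monoxide (CO) were taken by their source label, 4 at 24 h and 4 at 4 h, of 18 arrays in all. The other arrays were 2 of naive kidneys, which were not transplanted, and 8 of CO-treated grafts, 4 at each time. Messenger RNA of each kidney was measured on its own Affymetrix array for pig genes. The series concerns injury of transplanted kidneys on return of blood flow (ischemia and reperfusion). The 4 h grafts came from donors 1 to 4 and the 24 h grafts from donors 5 to 8, so animal and time cannot be told apart and nothing was paired. Each donor number occurs once among untreated and once among CO-treated grafts. The treatment field reads air for untreated and CO-treated grafts alike, so the groups follow the source field. Strain, genotype and age of the pigs are not given in the labels, nor is the kind of recipient. Differences are log2 level at 24 h minus log2 level at 4 h, with the standard error of the limma fit after ±, and a probe set or gene is said to have changed (risen or fallen) where the Benjamini-Hochberg adjusted p over all 23999 probe sets was under 0.05.

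The proximal tubule reabsorbs most of the filtered glucose, amino acids and small proteins, burns fatty acids to do so, and is the segment most prone to injury when blood flow stops and returns. Injured tubule cells first express stress genes such as chaperones and immediate early transcription factors. Surviving cells then lose transporters and metabolic enzymes, express injury markers and may enter the cell cycle, while interferons and chemokines reach the tissue and white blood cells arrive. Whole kidney RNA was measured, so fewer cells of a type and less RNA per cell cannot be told apart.

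Before the results, 2 arrays stood apart. The 4 h array of donor 1 correlated better with naive kidneys (mean 0.982) than with the other 3 arrays of its time (mean 0.956). On the second principal component, with 23.2% of the variance, it lay at 49.7 against -41.8 to -9.52 for the other 4 h arrays, and the naive arrays lay at 71.0 and 69.2. The 24 h array of donor 8 had a mean correlation of 0.966 with its group, against 0.979 to 0.981 for the other 24 h arrays, and the smallest spread of values of the 8 arrays (SD 2.19 log2 against 2.33 to 2.34 in its group). Where a call was lost without either array, its adjusted p (limma) without that array is given. The array file names form groups that run with time: donors 1, 3 and 4 lay in group 1, donors 2 and 5 in group 2 and donors 6 to 8 in group 3. Time was compared within group 2 by donor 5 minus donor 2, which is 1 array against 1 and has no test.

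Between 4 h and 24 h, 2332 of 23999 probe sets changed (9.72%), 1235 higher (5.15%) and 1097 lower (4.57%). The falls were larger: 627 probe sets fell and 422 rose by at least 2-fold, and 173 fell and 51 rose by at least 4-fold. Of the 6765 genes with a name, each read by its brightest probe set over the 8 arrays, 650 rose (9.61%) and 449 fell (6.64%), and the median difference over all was 0.07. The values of the 2 times did not overlap in 1389 genes (20.5%). Without the 4 h array of donor 1, 2928 probe sets changed, of which 1977 were among the 2332, and of the named genes 752 rose (11.1%) and 547 fell (8.09%). Without the 24 h array of donor 8, 860 rose (12.7%) and 442 fell (6.53%). With the file-name group as a block 0 probe sets passed in limma (1968 had an unadjusted p under 0.05), while the median size of the difference of the 2332 went from 0.94 to 0.82, the median standard error went from 0.22 to 0.37, and 2324 kept their sign. Within group 2, 2310 of the 2332 had the same sign, though both of its arrays also took part in the calls.

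**Figure D1:**
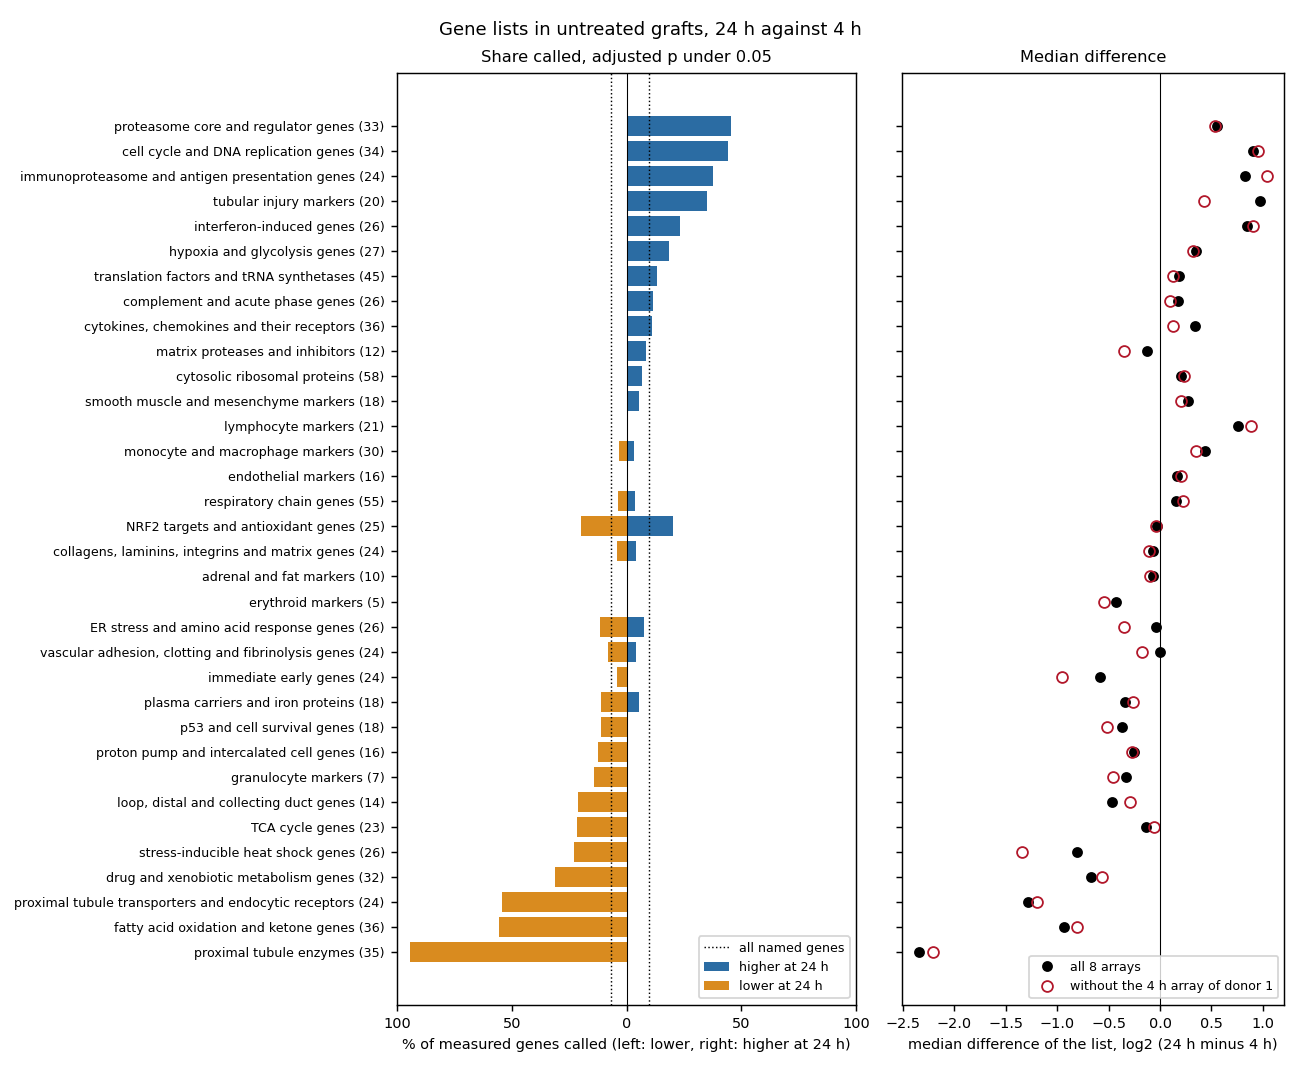
Gene lists (number of measured genes in brackets) by the share that fell (left) or rose (right) at an adjusted p under 0.05, in percent, and by the median log2 difference, 24 h minus 4 h, with all 8 arrays (filled points) and without the 4 h array of donor 1 (open points). Proximal tubule enzymes lay lowest, at a median of -2.34, the heat shock list went from -0.81 to -1.34 between both settings, and tubular injury markers from 0.97 to 0.43.

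Proximal tubule enzymes fell almost throughout. Of 35 measured enzymes of this segment, 33 fell and 0 rose, with a median difference of -2.34, and 29 fell without the 4 h array of donor 1. The values of 32 of the 35 did not overlap between times, beside 20.5% of all named genes. The mean log2 level of the list relative to the naive mean was between -0.74 and -0.18 in the 4 h arrays and between -3.31 and -2.32 in the 24 h arrays.

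MIOX, myo-inositol oxygenase, an enzyme nearly confined to the proximal tubule, had log2 levels of 11.12, 10.93, 10.74 and 11.19 at 4 h (donors 1 to 4, the order used throughout) and of 7.43, 6.02, 7.41 and 8.05 at 24 h (donors 5 to 8). All 4 late values lay far under the early ones. The difference was -3.77 ± 0.40 (adjusted p = 0.000101), and donor 5 minus donor 2 gave -3.50.

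DPYS, the dihydropyrimidinase of pyrimidine breakdown, went from 8.30, 7.53, 7.71 and 8.32 to 2.94, 3.28, 4.65 and 4.45, without overlap. Its difference was -4.14 ± 0.48 (adjusted p = 0.000189), and 2 dimmer probe sets of the gene gave -0.07 and -0.10. UPB1, which acts later in the same breakdown, fell by 3.82 ± 0.51 on the log2 scale (adjusted p = 0.000397). HPD, which breaks down tyrosine, stood at 4.84, 6.57, 3.61 and 6.53 at 4 h and at 1.36, 0.94, 1.31 and 2.68 at 24 h, where 3 of 4 values lay under the background of 1.59 set by tag control probe sets. It fell by 3.82 ± 0.85 (adjusted p = 0.00965).

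The methyltransferase INMT (-3.88 ± 0.50, adjusted p = 0.000368) and DAO, which oxidises D-amino acids (-3.19 ± 0.54, adjusted p = 0.0017), were the other enzymes of this segment among the 12 largest falls of named genes whose groups did not overlap. Enzymes of glucose formation fell too, as FBP1 (-2.49) and PCK2 (-3.09) show, and PCK1 fell by 2.34 with all arrays (adjusted p = 0.0307) but missed the threshold without the 4 h array of donor 1 (-1.91, adjusted p = 0.0713). Of this list only CYP27A1 (-1.05) and CYP24A1 (-0.35) did not pass.

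CYP27B1, which makes the active form of vitamin D, lay above naive levels at 4 h, unlike the mean of the enzyme list. It stood at 5.04 and 4.52 in the naive kidneys, at 7.26, 6.83, 6.95 and 5.98 at 4 h and at 3.57, 3.65, 3.86 and 3.51 at 24 h. The early values lay above both naive values and the late values below both. The difference was -3.11 ± 0.27 (adjusted p = 3.52e-05).

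Transporters and endocytic receptors of the same segment fell in 13 of 24 measured genes, with a median of -1.28, and 0 rose. SLC22A6, the organic anion transporter OAT1, stood at 6.84, 6.80, 6.52 and 7.45 at 4 h and at 2.99, 3.70, 3.69 and 4.29 at 24 h. The groups did not overlap, and the difference was -3.23 ± 0.50 (adjusted p = 0.00101). SLC17A1, a phosphate and urate transporter (-2.73 ± 0.36, adjusted p = 0.000397), and AMN, the partner of cubilin in protein uptake (-2.66 ± 0.35, adjusted p = 0.000397), fell likewise.

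LRP2, or megalin, the main receptor for filtered proteins, read 9.64, 8.34, 8.75 and 9.07 early and 6.12, 6.33, 7.88 and 6.95 late. The late value of donor 7 was nearest to the early ones, and there was no overlap. The difference was -2.13 ± 0.39 (adjusted p = 0.00283), while its dimmer probe set gave -1.31 (adjusted p = 0.0574). AQP1, the water channel of the proximal tubule, fell by 2.59, whereas SLC2A2 (0.43), ABCC2 (0.18) and SLC9A3 (-0.30) did not pass.

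**Figure D2:**
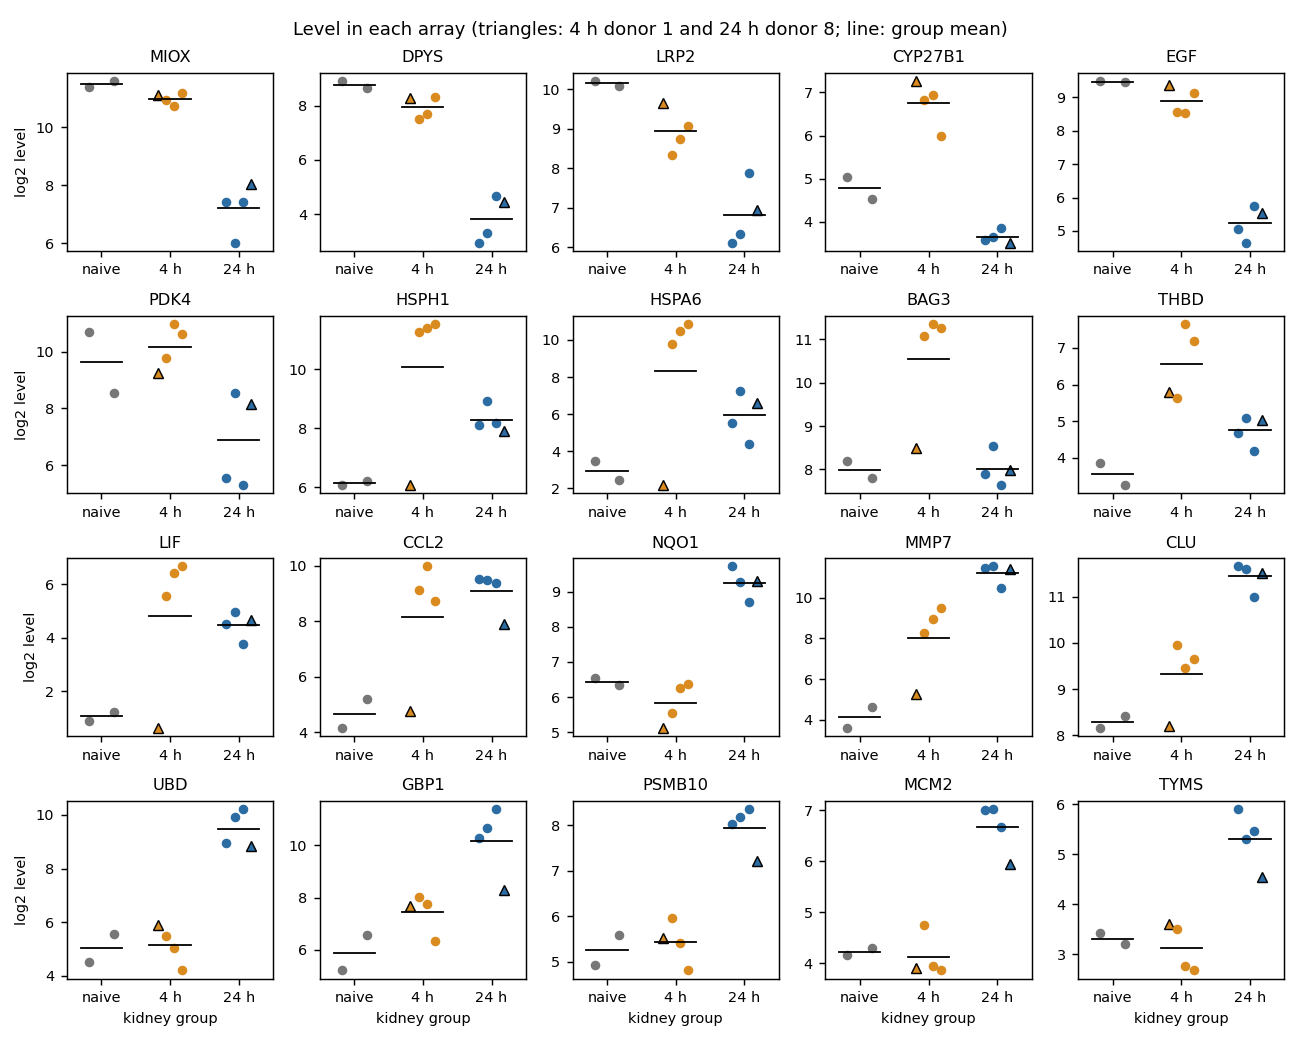
Log2 level of 20 genes in each naive, 4 h and 24 h array (points, with triangles for the 4 h array of donor 1 and the 24 h array of donor 8) and the mean of each group (lines). MIOX, DPYS, LRP2 and EGF fell late in all 4 arrays, HSPH1, HSPA6 and LIF were high in 3 of 4 early arrays, and NQO1, UBD and MCM2 were higher in each of the late arrays than in any early one.

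Genes of fatty acid oxidation and ketone use fell in 20 of 36, with a median of -0.93, and 0 rose. PDK4, the kinase that holds back glucose oxidation when fat is burnt, stood at 9.23, 9.77, 10.97 and 10.61 early and at 5.54, 8.53, 5.30 and 8.15 late. The late arrays of donors 5 and 7 were far lower than those of donors 6 and 8, and none reached an early value. It fell by 3.26 ± 0.66 (adjusted p = 0.00524). The peroxisomal enzymes ACAA1 (-1.92 ± 0.33) and PHYH (-1.81 ± 0.41) fell, as did ACADM (-1.12), the medium-chain step of mitochondrial oxidation. CPT1A, the entry step of fatty acids into mitochondria (-0.24), and the trifunctional subunits HADHA (-0.20) and HADHB (-0.32) did not pass.

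Of 23 TCA cycle genes, 5 fell: PC, which refills the cycle from pyruvate (-2.99 ± 0.35, adjusted p = 0.000191), PDHA1 (-1.17), SDHC (-0.94), SDHA (-0.75) and SUCLG2 (-0.87). The other 18 had differences between -0.43 and 0.30. The respiratory chain moved little, with 2 of 55 genes higher (ATP5G1, 0.82 ± 0.18, and NDUFB3, 0.71 ± 0.18) and 2 lower (COX7A1, -1.34 ± 0.24, and NDUFV1, -0.70), shares of 3.64% each way, below those of all named genes. Its median was 0.15, and 5 genes were higher and 2 lower without the 4 h array of donor 1.

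Hypoxia and glycolysis genes rose in 5 of 27 (a median of 0.35, with 0 lower). LDHA, which makes lactate, was at 7.03, 8.46, 8.04 and 8.11 early and at 9.05, 9.31, 8.87 and 10.42 late, a difference of 1.50 ± 0.36 (adjusted p = 0.015). PFKL (0.85 ± 0.19) and ENO1 (0.68 ± 0.19), both glycolytic, rose with it, and GPI (0.52) and GAPDH (0.54) were the other members that rose. Without the 4 h array of donor 1, ENO1 missed the threshold (adjusted p = 0.0702). The list's mean relative to naive was 0.92 in the late array of donor 8 and 0.07 to 0.20 in the other late arrays. Without that array 3 genes rose and the median was 0.15, and ENO1 (adjusted p = 0.0682) and GPI (adjusted p = 0.0514) missed the threshold.

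Drug and xenobiotic metabolism fell in 10 of 32 genes (a median of -0.67). CYP2A19, a cytochrome P450, had the largest difference (-4.10 ± 1.24, adjusted p = 0.0467), but its early values ran from 5.31 in donor 2 to 10.86 in donor 4 and its late ones from 2.78 to 7.42, so the groups overlapped. Donor 5 minus donor 2 gave 0.84, the other sign. It missed the threshold without the 4 h array of donor 1 (adjusted p = 0.0812). UGT2B31, a glucuronosyltransferase (-3.12 ± 0.76), and CYP2C36 (-2.45 ± 0.54) fell, though a second CYP2C36 probe set gave -0.12. A second UGT2B31 probe set gave -2.36 and did not pass (adjusted p = 0.0559 in limma).

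Other segments of the nephron were read by shorter lists. EGF, made in the loop and distal tubule, stood at 9.37, 8.57, 8.54 and 9.14 early and at 5.06, 4.65, 5.76 and 5.53 late, far apart, with a difference of -3.66 ± 0.49 (adjusted p = 0.000411). STC1, a calcium and phosphate hormone (-2.11 ± 0.61), and FXYD2, a subunit of the sodium pump (-1.12 ± 0.30), made up the 3 that fell of 14 loop, distal and collecting duct genes. For STC1 the other probe sets gave -1.77 and 0.01, and FXYD2 missed the threshold without the 4 h array of donor 1 (adjusted p = 0.0591).

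KCNJ1, the potassium channel ROMK, ran the other way among these, at 8.42, 5.55, 6.74 and 5.84 early and 8.38, 7.75, 8.11 and 8.60 late. Donor 1 was as high as the late arrays. The difference was 1.57 (adjusted p = 0.053) with all arrays and 2.17 (adjusted p = 0.00174) without that one. Of 16 proton pump and intercalated cell genes, ATP6V1C1 (-0.73 ± 0.20) and the accessory subunit ATP6AP2 (-0.69 ± 0.19) fell (12.5%, beside 6.64% of all named genes). Without the 4 h array of donor 1, 2 of the 16 rose (12.5%) and 3 fell (18.8%). Of all named genes 11.1% rose and 8.09% fell in that fit.

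The intercalated cell subunits ATP6V1C2 (1.89, adjusted p = 0.0562) and ATP6V0A4 (1.17, adjusted p = 0.0584) missed the threshold, and rose without the 4 h array of donor 1 (2.76, adjusted p = 0.000149, and 1.72, adjusted p = 0.00012). ATP6V1C2 was at 6.80, 3.00, 3.75 and 3.20 early and at 6.46, 5.60, 5.91 and 6.35 late, against naive values of 7.15 and 7.49. The 3 early arrays other than donor 1 lay lowest. With the file-name group as a block, the medians of the loop list and of the proton pump list turned from -0.47 and -0.25 to 0.08 and 0.06.

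Stress-inducible heat shock genes, the chaperones and cochaperones that refold proteins, turned on the 4 h array of donor 1. Of 26 measured, 6 fell and 0 rose with all arrays, at a median of -0.81, and without that array 22 fell (84.6%, against 8.09% of all named genes in the same fit), at a median of -1.34. Their mean log2 level relative to naive was -0.04 in donor 1 and 2.52, 2.66 and 2.78 in donors 2 to 4. The late arrays lay between 0.54 and 1.14, above donor 1 and below the other early arrays. All 26 differences were negative in both fits.

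HSPH1, a large chaperone of the HSP110 family, stood at 6.06, 11.27, 11.40 and 11.54 early and at 8.12, 8.93, 8.17 and 7.92 late, against 6.08 and 6.21 in naive kidneys. Donor 1 lay at the naive level and the other early arrays above every late one. The difference was -1.78 (adjusted p = 0.233) with all arrays and -3.12 (adjusted p = 0.000149) without donor 1.

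HSPA6, a strictly inducible HSP70, read 2.17, 9.78, 10.49 and 10.86 early and 5.55, 7.22, 4.40 and 6.60 late. Its difference went from -2.38 (adjusted p = 0.333) to -4.43 (adjusted p = 0.000983). HSP70.2, the porcine inducible HSP70, went from -1.91 (adjusted p = 0.102) to -2.91 (adjusted p = 0.000599), with 8.31 in donor 1 and 12.26 to 12.32 in the other early arrays. Both genes were again low in donor 1 alone.

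Among the 6 that fell with all arrays, BAG3, an HSP70 cochaperone, was at 8.50, 11.09, 11.36 and 11.27 early and at 7.88, 8.54, 7.63 and 7.98 late (-2.54 ± 0.53, adjusted p = 0.0061). DNAJA4 fell by 3.27 ± 0.98 (adjusted p = 0.0444), by 4.70 without donor 1 (adjusted p = 0.000116), and by 3.45 without the late array of donor 8, where it missed the threshold (adjusted p = 0.0543). Its dimmer probe set gave -0.06. DNAJB4 (-2.48 ± 0.54, adjusted p = 0.00839) and the mitochondrial chaperonins HSPD1 (-1.05) and HSPE1 (-0.80) also fell, as did DNAJB6 (-0.52), which missed the threshold without the late array of donor 8 (adjusted p = 0.0702). In CO-treated grafts, which have their own arrays but the same donor numbers, 17 of the 26 genes fell, at a median of -1.29. Over all 23999 probe sets 1786 fell there. The file-name groups of these arrays were 1 and 2 at 4 h and 3 and 4 at 24 h.

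**Figure D3:**
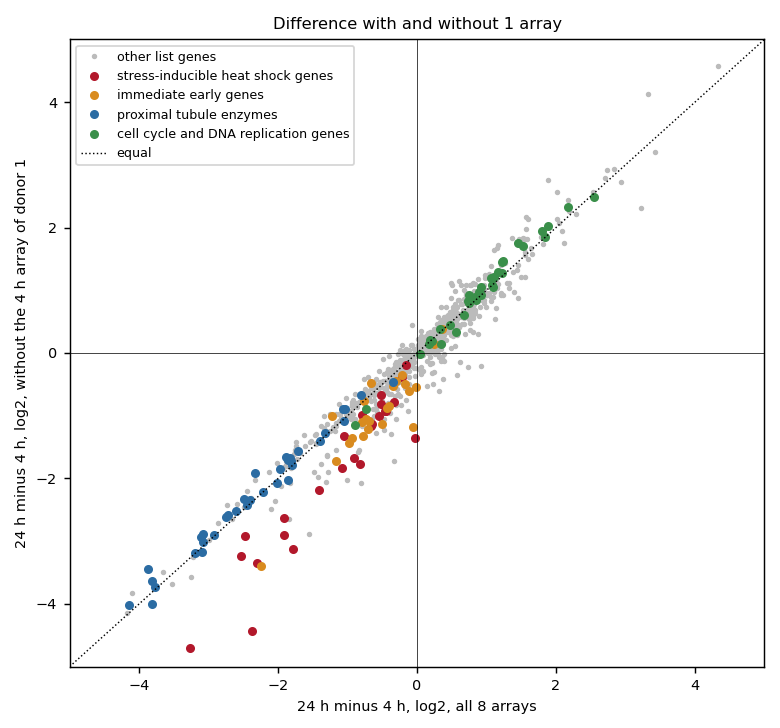
Difference of each list gene, 24 h minus 4 h in log2, with all 8 arrays (horizontal) and without the 4 h array of donor 1 (vertical). The dotted line marks equal values. Heat shock genes lie below it, as HSPA6 at -2.38 against -4.43, while proximal tubule enzymes and cell cycle genes lie near it.

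Immediate early genes, the transcription factors and regulators induced first by stress, had 1 of 24 lower with all arrays (4.17%, beside 6.64% of all named genes). Without the 4 h array of donor 1, 10 were lower (41.7%, beside 8.09% of all named genes in that fit). The median went from -0.58 to -0.95 without that array. SGK1, a kinase that raises sodium transport, was the 1 that fell with all arrays (-1.23 ± 0.30, adjusted p = 0.0154). Within file-name group 2, though, SGK1 differed by -0.05, with the group as a block by -0.15, and it missed the threshold without the late array of donor 6 (adjusted p = 0.0567). FOS stood at 5.39, 9.68, 9.88 and 10.48 early and at 6.49, 6.37, 5.75 and 7.86 late. Donor 1 lay below all late arrays and donors 2 to 4 above them, and the difference was -2.24 (adjusted p = 0.13) or -3.40 without donor 1 (adjusted p = 0.00226). MYC, another such factor, had differences of -0.01 and -0.55, neither past the threshold.

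Of 18 genes of p53 signalling and cell survival, 2 fell: GADD45B, a stress sensor (-1.39 ± 0.37, adjusted p = 0.0237), and TP53I3, a p53-induced oxidoreductase (-0.99 ± 0.18, adjusted p = 0.003). Without the 4 h array of donor 1, 5 fell, with CDKN1A, the cell cycle inhibitor p21, at -1.06 (adjusted p = 0.0256) in place of -0.47 (adjusted p = 0.594). Of 26 ER stress and amino acid response genes 2 rose (7.69%) and 3 fell (11.5%), at a median of -0.04. Of all named genes 9.61% rose and 6.64% fell. PHGDH (-1.73 ± 0.30) and PSAT1 (-1.11 ± 0.33), which make serine, fell with the chaperone DNAJB9 (-0.95), and CRELD2, secreted on ER stress (1.39 ± 0.37), and VLDLR (0.91) rose. PSAT1 missed the threshold without the 4 h array of donor 1 (adjusted p = 0.0877) and without the late array of donor 8 (adjusted p = 0.07). The sign of the list's median of -0.04 turned with quantile normalization (0.04). Without the 4 h array of donor 1, 2 of the 26 rose and 6 fell, at a median of -0.35. Those that fell made up 23.1%, against 8.09% of all named genes in that fit. The list's mean relative to naive was 0.02 in that array, 1.02 to 1.13 in the other early arrays and 0.44 to 0.78 late.

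NRF2 targets and antioxidant genes split evenly, with 5 of 25 higher and 5 lower. NQO1, a quinone reductase and standard readout of NRF2, stood at 5.12, 5.53, 6.26 and 6.37 early and at 9.72, 9.27, 8.71 and 9.32 late, with naive values of 6.53 and 6.35. Early arrays lay near or below naive and all late ones far above, and the difference of 3.43 ± 0.31 had an adjusted p of 3.52e-05. PRDX1 (0.84), GSR (0.79), TALDO1 (0.76) and TXN (0.57) rose with it.

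The falling members were mostly enzymes rich in peroxisomes, mitochondria or plasma. They were CAT, or catalase (-1.69 ± 0.29), GPX3 (-1.17 ± 0.18), PRDX5 (-1.01), PRDX3 (-0.95) and HMOX2 (-0.71), the last missing the threshold without the 4 h array of donor 1 (adjusted p = 0.0823). HMOX1, the inducible heme oxygenase that makes CO, was at 6.10, 7.91, 7.43 and 7.34 early and at 6.98, 7.45, 6.19 and 6.89 late. These overlapped, and the difference was -0.32 ± 0.34 (adjusted p = 0.652).

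Tubular injury markers rose in 7 of 20 (a median of 0.97), and this list too depended on donor 1, without whose 4 h array 8 rose, 4 fell and the median was 0.43. MMP7, a matrix protease of injured tubules, stood at 5.27, 8.26, 8.97 and 9.49 early and at 11.46, 11.53, 10.48 and 11.39 late. Naive kidneys had 3.61 and 4.63, so levels above naive were present by 4 h and were higher at 24 h. The difference was 3.22 ± 0.66 (adjusted p = 0.00547), or 2.31 without donor 1 (adjusted p = 0.00181).

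CLU, or clusterin, a secreted chaperone, was at 8.21, 9.95, 9.45 and 9.65 early and at 11.65, 11.60, 10.99 and 11.51 late (2.12 ± 0.30, adjusted p = 0.000552). CLDN6, a tight junction protein of the developing kidney, went from 2.50, 2.51, 3.67 and 3.95 to 5.82, 5.88, 6.34 and 6.38 (2.94 ± 0.39, adjusted p = 0.000408). For both genes every late array lay above every early one. SPP1, or osteopontin (1.45), vimentin (VIM, 1.07), S100A11 (1.06) and VCAM1 (1.79) also rose. SPP1 missed the threshold without the late array of donor 8 (adjusted p = 0.0818).

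The 4 markers that fell without donor 1 were high in the other early arrays. TNFRSF12A, the TWEAK receptor, was at 6.17, 8.92, 9.50 and 9.21 early and at 8.41, 8.23, 7.57 and 8.40 late, with a difference of -0.30 with all arrays and of -1.05 without donor 1 (adjusted p = 0.0113). CDKN1A, PLAU, or urokinase (-1.29), and GPRC5A were the others. GPNMB, a lysosomal glycoprotein of phagocytic cells and injured tubules outside the list, rose by 2.61 ± 0.43 (adjusted p = 0.00141), while its 4 dimmer probe sets gave 0.08 to 1.83 and did not pass.

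**Figure D4:**
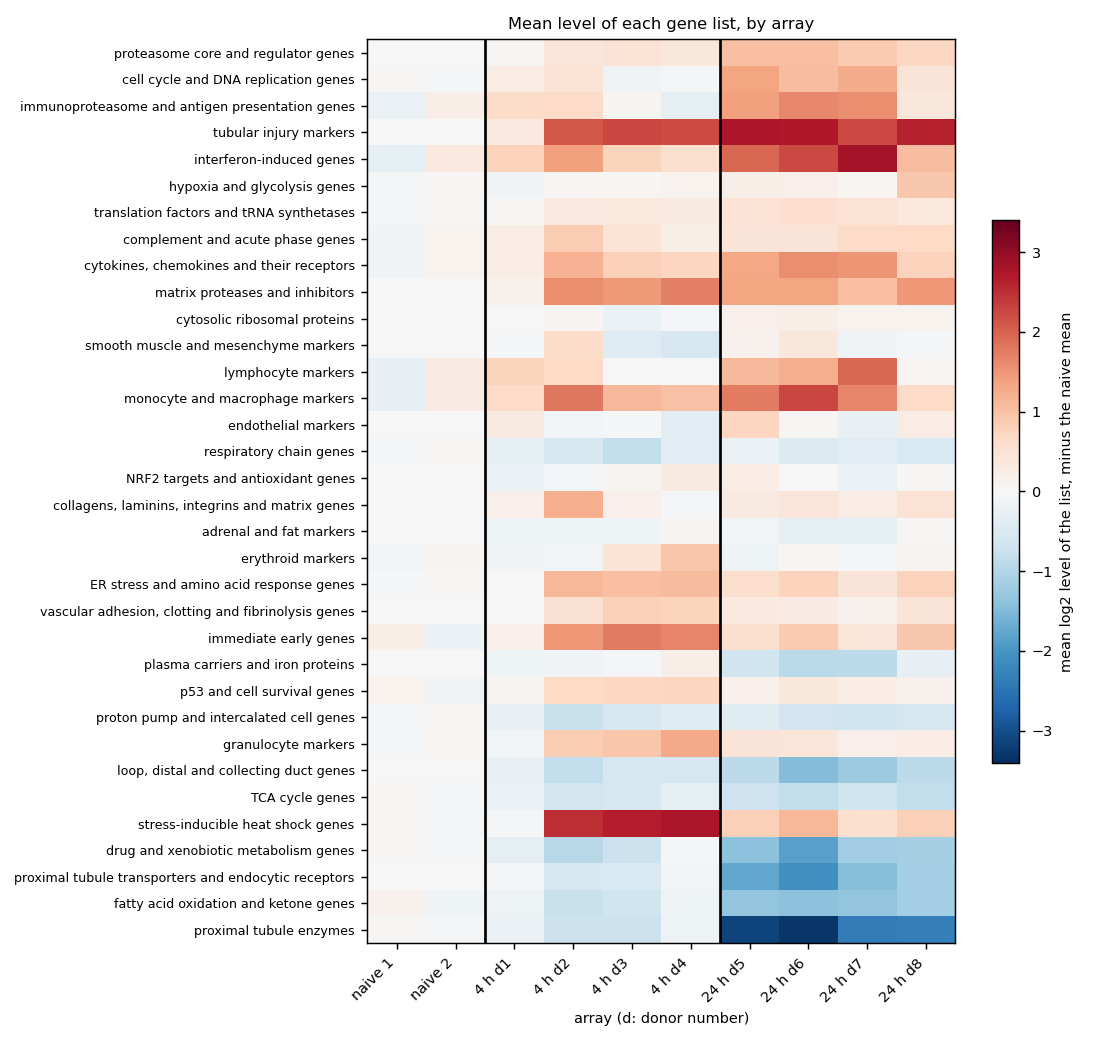
Mean log2 level of each gene list relative to the mean of both naive arrays, in each naive, 4 h and 24 h array (d is the donor number). The heat shock row is near 0 in the 4 h array of donor 1 (-0.04) and at 2.52 to 2.78 in the other early arrays, and the proximal tubule enzyme row reads -3.31 to -2.32 in the late arrays.

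Interferon-induced genes rose in 6 of 26, and all 26 differences were positive, with a median of 0.85. UBD, a ubiquitin-like protein induced by interferon gamma and TNF, had the largest rise of any named gene. It stood at 5.90, 5.49, 5.05 and 4.20 early and at 8.96, 9.92, 10.22 and 8.85 late, well apart, and the difference was 4.33 ± 0.60 (adjusted p = 0.000549).

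The guanylate-binding proteins GBP2 (2.74 ± 0.68, adjusted p = 0.0177) and GBP1 (2.71 ± 0.69, adjusted p = 0.0203), likewise induced by interferon gamma, rose with all 3 probe sets of GBP1. IFI35 (1.64), WARS (1.59) and SOCS1 (1.01) were the other members that rose, and SOCS1 missed the threshold without the 4 h array of donor 1 (adjusted p = 0.0823). ISG15 (0.51), MX1 (0.85) and IFIT1 (0.82) were among those that did not pass.

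GBP1 read 7.69, 8.01, 7.77 and 6.34 early and 10.28, 10.66, 11.39 and 8.30 late, so the late array of donor 8 lay close to the early ones. Over the list, the mean relative to naive was 1.05 in that array and 1.94 to 2.82 in the other late ones, against 0.55 to 1.39 early. Without that array 9 genes rose, against 12.7% of all named genes in that fit. Within file-name group 2 the list median was 0.22, and 18 of the 26 kept their sign.

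Antigen presentation and the immunoproteasome, which cuts peptides for class I molecules, rose in 9 of 24 genes (37.5%, beside 9.61% of all named genes), at a median of 0.83. PSMB10, a catalytic subunit of the immunoproteasome, stood at 5.52, 5.96, 5.42 and 4.81 early and at 8.04, 8.18, 8.36 and 7.22 late (2.53 ± 0.45, adjusted p = 0.0022). PSME2, its activator (2.04 ± 0.32), PSMB8 (2.02 ± 0.55) and the peptide pump TAP1 (1.81) rose. PSMB8 overlapped between times, at 6.19 in the late array of donor 8 and 6.51 in the early array of donor 2. The list's mean relative to naive was 0.39 in the late array of donor 8 and 1.39 to 1.63 in the other late arrays. It was -0.30 to 0.66 early. Of class II genes SLA-DMA rose (0.71), while SLA-DRA at 0.68 and CD74 at -0.14 did not pass.

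The constitutive proteasome rose as well, in 15 of 33 genes, with 32 of 33 differences positive and a median of 0.55. PSMB2 (1.15 ± 0.16, adjusted p = 0.000591), PSMB3 (1.09 ± 0.26) and PSMA2 (1.08 ± 0.17) had the largest. PSMB2 was at 8.32, 8.57, 8.48 and 8.42 early and at 9.86, 9.66, 9.62 and 9.24 late, with no overlap. Core subunits made up most of the 15, joined by PSMD8 (0.75) and PSMD14 (0.99) of the regulatory cap.

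Cytokines, chemokines and their receptors rose in 4 of 36 (a median of 0.34), a share of 11.1% near the 9.61% of all named genes. Without the 4 h array of donor 1, 5 rose, 3 fell and the median was 0.13, and without the late array of donor 8, 9 rose and 0 fell. CCL8, which attracts monocytes, was at 3.57, 3.78, 2.88 and 2.74 early and at 6.58, 6.77, 7.00 and 3.93 late (2.83 ± 0.63, adjusted p = 0.00924), so donor 8 lay just above the early arrays. CXCL16, the ligand of CXCR6 on T cells (1.65 ± 0.23), IL15, a growth factor of T and NK cells (1.56 ± 0.25), and IL1B (1.32) were the others, of which IL1B missed the threshold without the 4 h array of donor 1 (adjusted p = 0.092).

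CXCL9, an interferon gamma chemokine, read 7.13, 4.88, 3.43 and 3.52 early and 8.54, 9.22, 10.49 and 4.04 late. Donor 1 was the highest early array and donor 8 the lowest late one, so the groups overlapped, and the difference of 3.33 ± 1.26 did not pass (adjusted p = 0.111). CCL2, which attracts monocytes, stood at 4.76, 9.14, 9.98 and 8.74 early and at 9.52, 9.51, 9.38 and 7.92 late. It did not pass (0.92 ± 0.88, adjusted p = 0.602) and turned to -0.21 without donor 1 (adjusted p = 0.884).

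LIF, a cytokine of the IL6 family, was at 0.63, 5.55, 6.40 and 6.66 early and at 4.51, 4.96, 3.78 and 4.65 late, with differences of -0.33 (adjusted p = 0.882) and, without donor 1, -1.73 (adjusted p = 0.0106). IL6 itself was dim throughout, at 1.67 to 2.87 early and 1.56 to 2.10 late, and did not pass (-0.59 ± 0.28, adjusted p = 0.225). IL1R1, the receptor of interleukin 1, differed by -1.28 (adjusted p = 0.0856) and, without donor 1, by -1.89 (adjusted p = 0.00103).

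Markers of white blood cells moved less clearly. Of 21 lymphocyte markers 0 passed in limma with all arrays (6 had an unadjusted p under 0.05), at a median of 0.76, 1 rose without the early array of donor 1 (CD3G), and 7 rose and 1 fell without the late array of donor 8. CD3E, a chain of the T cell receptor complex, was at 4.63, 4.79, 3.38 and 3.05 early and at 5.78, 5.64, 7.06 and 3.71 late, overlapping through donor 8 (1.58, adjusted p = 0.178). The list's mean relative to naive ran from 0.06 in donor 8 to 1.96 in donor 7, and from 0.00 to 0.77 early. The list's summed linear level ran from 164 to 389 early and from 175 to 1120 late. The B cell marker CD79B lay at or near background in both groups (means 1.36 and 1.25). The summed level of monocyte and macrophage markers ran from 1401 to 2615 early and from 1136 to 4012 late. The part of such cells in the interferon and antigen presentation results was not tested.

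Of 30 monocyte and macrophage markers, MRC1, the mannose receptor, rose (1.51 ± 0.44, adjusted p = 0.0414) and CYBA, a subunit of the phagocyte oxidase also present in the kidney, fell (-0.92 ± 0.27, adjusted p = 0.0385). These shares of 3.33% each way lay below the 9.61% and 6.64% of all named genes. CD163 was at 5.65 to 7.25 early and 5.03 to 8.23 late. Without donor 8, 4 of the 30 rose and 0 fell, beside 12.7% and 6.53% of all named genes in that fit. CYBA missed the threshold there (adjusted p = 0.0891). LTF, or lactoferrin, was the 1 of 7 granulocyte markers that fell (-1.30 ± 0.40, adjusted p = 0.0484), or 14.3% beside 6.64% of all named genes. Without the late array of donor 8 it missed the threshold (adjusted p = 0.0766) and 0 of the 7 fell. Without the 4 h array of donor 1, 2 of the 7 fell (28.6%, against 8.09% of all named genes in that fit). The list's mean relative to naive was -0.1 in that array, 0.87 to 1.29 in the other early arrays and 0.17 to 0.45 late. S100A8 and S100A12 lay at 1.35 to 2.83 in all 8 arrays, where the background was 1.59. S100A9 lay higher, at 1.37 to 7.03 early and 2.85 to 5.47 late against a naive mean of 1.59, and did not pass (-0.81 ± 0.96, adjusted p = 0.692).

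Cell cycle and DNA replication genes rose in 15 of 34, with 0 lower and a median of 0.90, and the same number rose without the 4 h array of donor 1. MCM2, a subunit of the replicative helicase, stood at 3.91, 4.76, 3.94 and 3.86 early and at 7.01, 7.02, 6.67 and 5.95 late. The naive values were 4.16 and 4.30, near the early ones, and the late values lay above all of them (2.55 ± 0.28, adjusted p = 0.00013). Its other probe sets gave 1.26, which passed, and 0.17.

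TYMS, which makes thymidylate (2.17 ± 0.33, adjusted p = 0.000858), and RRM2, a subunit of ribonucleotide reductase (1.89 ± 0.54, adjusted p = 0.0369), supply DNA building blocks. A dimmer TYMS probe set gave -0.07. MCM3 (1.84), MCM5 (1.80), CDC45 (1.53), FEN1 (1.08) and PCNA (1.09) act at the replication fork and rose. CDC25B, a phosphatase that promotes entry into mitosis (1.22), and CKS1B, a partner of cyclin-dependent kinases (1.11), rose too.

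Members that did not pass included TOP2A at 1.46 (adjusted p = 0.188), BIRC5 at 1.17 (adjusted p = 0.138), CCNB1 at 1.06, CDC20 at 0.89 and PLK1 at 0.73. TOP2A was at 4.58, 4.46, 2.66 and 2.92 early and at 5.90, 4.97, 6.04 and 3.53 late, so its groups overlapped through donor 8 where those of MCM2 did not. The cell cycle list's mean relative to naive was 0.45 in donor 8 and 1.06 to 1.35 in the other late arrays.

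Protein synthesis genes had small, mostly positive differences, and the shares that rose lay near the 9.61% of all named genes. Of 45 translation factors and tRNA synthetases 6 rose (13.3%), led by VARS (1.16 ± 0.24), RARS (0.99 ± 0.15) and EIF3I (0.96 ± 0.18). Of 58 cytosolic ribosomal proteins 4 rose (6.90%), among them RPL27 (0.62 ± 0.14), RPS18 (0.48 ± 0.13) and RPS23 (0.39 ± 0.11), and 53 differences were positive at a median of 0.20. RPS23 missed the threshold without the 4 h array of donor 1 (adjusted p = 0.0619), and within file-name group 2 it differed by 0.08. Dimmer RPS18 probe sets gave 0.34 and 0.37 and did not pass, and those of RPL27 gave 0.57, which passed, and -0.13. Under quantile normalization and median centring the median of the ribosomal list was 0.20 and 0.15.

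Of 24 vascular adhesion, clotting and fibrinolysis genes 1 rose (4.17%) and 2 fell (8.33%). Of 18 plasma carriers and iron proteins 1 rose (5.56%) and 2 fell (11.1%). Beside these, 9.61% of all named genes rose and 6.64% fell. Without the 4 h array of donor 1, 1 of the 24 vascular genes rose and 5 fell, at a median of -0.18. Those that fell made up 20.8%, against 8.09% of all named genes in that fit. F9, clotting factor IX, stood at 7.62, 7.49, 7.05 and 7.84 early and at 3.00, 2.02, 2.99 and 5.28 late. All 3 of its probe sets fell, and the difference of -4.17 ± 0.72 (adjusted p = 0.00189) was the largest fall of any named gene. TF, or transferrin, the iron carrier (-3.53 ± 0.82, adjusted p = 0.0122), and APOM, a carrier of sphingosine phosphate made in proximal tubules (-2.86 ± 0.42, adjusted p = 0.000732), fell, and FABP5, a fatty acid carrier, rose (2.17 ± 0.43, adjusted p = 0.00434). A dimmer TF probe set gave -1.39 (adjusted p = 0.127 in limma).

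THBD, the endothelial thrombin receptor thrombomodulin, was at 5.80, 5.64, 7.66 and 7.18 early and at 4.66, 5.09, 4.19 and 5.04 late, against naive values of 3.84 and 3.24. The late arrays lay between naive and early levels, and the difference was -1.83 ± 0.39 (adjusted p = 0.00771). VCAM1, an adhesion molecule of activated endothelium and injured tubules, rose (1.79 ± 0.52, adjusted p = 0.0372, with 0.47 within file-name group 2), and ICAM1 did not pass (0.39). Of 16 endothelial markers 0 passed in limma with all arrays (5 had an unadjusted p under 0.05), and 3 rose without the 4 h array of donor 1: PECAM1 (1.04), CD34 and RAMP2 (2.56).

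Among complement and acute phase genes 3 of 26 rose (11.5%, near the 9.61% of all named genes): LBP, which binds endotoxin (2.29 ± 0.48, adjusted p = 0.00673), SAA2 (1.11 ± 0.21) and complement factor B (CFB, 0.52 ± 0.15). The second probe sets of LBP and SAA2 gave -0.08 and -0.05, and that of CFB gave 1.52. CFB missed the threshold without the 4 h array of donor 1 (adjusted p = 0.0849), when 2 rose and 2 fell, and without the late array of donor 8 (adjusted p = 0.0818), when 2 rose and 1 fell. Matrix genes changed little, with ITGB3, an integrin subunit, higher (2.08 ± 0.35, adjusted p = 0.0016) and LOX, a collagen cross-linker, lower (-1.63 ± 0.43, adjusted p = 0.0251, with 0.05 by its other probe set) of 24. Without the 4 h array of donor 1 LOX missed the threshold (-1.31, adjusted p = 0.0587).

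MMP7 was the 1 of 12 matrix proteases and inhibitors that changed, and TPM1, a tropomyosin, the 1 of 18 smooth muscle and mesenchyme genes (0.81 ± 0.18). Dimmer TPM1 probe sets gave 0.08 and 0.59 and did not pass. The glomerular genes measured, WT1 (0.51) and TCF21 (0.80), did not pass, nor did any of 5 erythroid or 10 adrenal and fat markers (0 and 3 of these had an unadjusted p under 0.05 in limma). Of 47 cell type markers sought 28 were measured, and the adrenal markers CYP11A1 and STAR and the fat marker ADIPOQ lay at or near background in both groups. Other genes among the 12 largest rises without overlap were SPOCK3 (2.51 ± 0.42) and OLFM4 (2.43 ± 0.65), the latter at 2.75 to 6.82 late, and ADHFE1 (-3.21 ± 0.41) was among the 12 largest such falls.

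Whether the change over time differed between untreated and CO-treated grafts was asked by the difference of both changes, and 0 of 23999 probe sets passed in limma (612 had an unadjusted p under 0.05, and the smallest adjusted p was 0.996). The CO-treated grafts had 4226 probe sets changed over time on their own (2440 higher, 1786 lower), and their arrays at 4 h and 24 h share no file-name group. A p that misses the threshold does not show that both changes were alike: the median standard error of this difference over all probe sets was 0.27. It varied by gene, from 0.16 for RPS23 to 0.55 for LRP2, 0.85 for UBD and 1.96 for HSPA6.

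Among the 6765 named genes, each by its brightest probe set, the smallest unadjusted p values belonged to TP53I3, SLC17A1, ACSS2 and AMT. TP53I3 differed over time by -0.99 in untreated and by -0.05 in CO-treated grafts, a difference of -0.94 ± 0.26 (unadjusted p = 0.00224, adjusted p = 0.996). SLC17A1 had -2.73 and -0.95, ACSS2, which makes acetyl-CoA from acetate, 0.17 and 0.98, and AMT, of glycine cleavage, -0.95 and 0.35. The AMT fall in untreated grafts missed the threshold without the 4 h array of donor 1 (adjusted p = 0.073). LRP2 had -2.13 and -0.56, a difference of -1.57 ± 0.55 with an unadjusted p of 0.0116.

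The proximal tubule enzyme list had a median of -1.38 in CO-treated grafts, with 23 of 35 lower, beside -2.34 here. That gap was not tested over the list, and none of its members passed on its own. In the CO-treated grafts UBD differed over time by 3.54, NQO1 by 3.04 and MCM2 by 3.01, beside 4.33, 3.43 and 2.55 here.

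Set beside the naive kidneys, which have only 2 arrays and share the graft arrays with the comparison above, the lists took different courses. Proximal tubule enzymes had medians of -0.55 at 4 h and -2.81 at 24 h against naive, heat shock genes 1.72 and 0.77, tubular injury markers 1.80 and 2.54, interferon-induced genes 0.76 and 1.77 and cell cycle genes 0.03 and 1.08. The 650 genes that rose had medians of -0.18 and 0.61 against naive, and the 449 that fell had -0.38 and -1.55. No test was made on these values.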

How the data were processed

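Labels gave 18 arrays, of which 8 (untreated grafts, 4 h and 24 h) were compared. The deposited values are log2 levels per probe set. The authors made them with RMA, per the submitters' processing notes, and its version and settings are not given in the sources used here. Normalisation across arrays of different tissue states can shift low levels, and the number of arrays limits the precision.

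Of 24123 probe sets, 124 controls were left out. All tests were two-sided and came from 1 linear model over the 18 arrays with 5 groups, no block and 13 residual degrees of freedom (limma 3.58.1, lmFit then eBayes, R 4.3.3), with Benjamini-Hochberg adjustment over 23999 probe sets. The platform annotation gives 10069 probe sets 1 gene symbol, 198 several and 13732 none, and 9961 matched Sscrofa11.1 by identifier. No sequence was printed. The brightest probe set stands for a gene. Background is the 95th percentile of 17 tag controls (1.59).

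Members and the 35 lists were chosen with earlier results of these data known. Named genes were the 12 largest rises and 12 largest falls that passed without overlap, up to 3 per list that passed (else the smallest p), HMOX1, HSP70.2, IL6, CCL2 and LRP2, the 4 most moved by the 4 h array of donor 1, and the 4 with the smallest p for untreated against CO. HAVCR1, LCN2 and UMOD were sought too, without a named probe set. Other list members in the text were picked after their values were seen.

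Donor numbers link untreated with CO grafts, and the 2 times compared share none. Deviations of donor partners correlated at -0.20 to 0.57, so a donor block was only an alternative. Also tried were array weights (statmod 1.5.0), other variance models, a filter on dim probe sets, other scalings, the file-name group as a block, fewer arrays and the mean of a gene's probe sets. The fit was tested on simulated data. The naive kidneys' array files carry numbers that donor 4's files carry too. The p-values measure the spread between these arrays, which differ by donor within each group. Figures used matplotlib 3.10.9 in Python 3.11.15.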

Additional observations from a re-analysis of the deposited data

Results flagged for a closer look

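Of 198 sets of 4 values (99 named genes at 2 times), 13 had 1 array far from the other 3 by Dixon's ratio, where chance gives about 1 in 20. The 4 h array of donor 1 made up 7 of them, but 3 of these genes (DNAJA4, HSPA6 and HSPH1) were named because that array moved them most, so this tally is no test of the array. It lay low in HSPH1 (6.06 against 11.27 to 11.54), HSP70.2 (8.31 against 12.26 to 12.32), HSPA6 (2.17 against 9.78 to 10.86), DNAJA4 (3.09 against 8.41 to 9.05), BAG3 (8.50 against 11.09 to 11.36) and PSMB3 (4.72 against 5.47 to 5.58), and high in PSAT1 (10.02 against 9.46 to 9.52).

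The late array of donor 8 was low in CCL8 (3.93 against 6.58 to 7.00) and CCL2 (7.92 against 9.38 to 9.52). The late array of donor 7 was low in MMP7 (10.48 against 11.39 to 11.53) and high in LPL (3.41 against 2.62 to 2.75). Among the other early arrays, donor 2 was high in MCM2 (4.76 against 3.86 to 3.94) and donor 3 in RARS (7.57 against 7.27 to 7.30). What sets these arrays apart was not tested.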

How the results depend on the processing

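The count of 2332 changed probe sets (1235 higher, 1097 lower) depended most on the file-name groups: with these as a block 0 passed (0 higher, 0 lower). Fitted on the 8 arrays alone it was 1462 (702 higher, 760 lower), with array weights 4978 (2928 higher, 2050 lower), and without both arrays that stood apart, an alternative chosen after seeing the data, 2057 rose of 3473. Leaving out 1 array in turn gave 1320 to 2928, with 642 to 1678 higher and 678 to 1372 lower. It was 1320 without 24 h donor 6, 1516 without 24 h donor 7 and 1548 without 4 h donor 4, while higher calls alone were 748 without 4 h donor 3 and 769 without 24 h donor 5. With donor as a random replicate block, a pairing of untreated with CO grafts, it was 2365. An intensity trend, robust variances, the filter, quantile normalization, median centring and the fit on 7 untreated arrays gave 2216, 2298, 2438, 2524, 2250 and 2287.

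Of the 99 named genes 86 passed, and these 86 kept their sign under each alternative. With the 8 arrays alone, an intensity trend, robust variances, the filter or the donor block, the difference of a gene stays as it was. Its sign could not turn in those fits. From 63 to 80 still passed with 1 array left out, 65 on the 8 arrays alone and 0 with the file-name block. CCL2 turned to -0.21 without 4 h replicate 1, and the fit on 7 untreated arrays repeats that value by construction. Without both arrays that stood apart its difference stayed positive. With 1 array left out it ran from -0.21 to 1.53. LIF turned to 0.20 and 0.28 without 4 h replicates 3 and 4 and ran from -1.73 to 0.28. The cause was not tested. Over 19 alternatives, some of which cannot move it, the median of proximal tubule enzymes ran from -2.50 to -2.21. That of heat shock genes ran from -1.34 to -0.55, of interferon-induced genes from 0.39 to 1.22 and of cell cycle genes from 0.76 to 1.20. With the mean of all probe sets of a gene, the median of proximal tubule transporters went to -1.02 and that of lymphocyte markers to 0.50. The difference between untreated and CO-treated grafts had 0 calls under each alternative. Of 6765 genes 2261 had several probe sets, and 5 had probe sets that passed in both directions.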
